A study of Mus musculus with 6 samples.

Results

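The genes described here are the heme and quinone detoxification genes Hmox1 and Nqo1 and the chaperone genes Hspb8, Dnajb1 and Hspa2, followed in RAW264.7 macrophages exposed to the extract of a biodegradable zinc scaffold. They were taken as the rows of the deposited table that carry these names, which gave 5 of the 345 listed genes. RAW264.7 cells are an established line of mouse macrophages, and both groups are this 1 line. The Control group was left untreated. The G scaffold group, marked Zn in the labels, was cultured for 48 h in a 5-fold diluted extract of a Gyroid (G) scaffold. The scaffold was printed from Zn-0.8Li, a zinc alloy with nominally 0.8% lithium by weight. The cells met the dissolved products of the metal and not the scaffold itself. Total RNA was sequenced in 3 libraries of each group, and the comparison asks how the extract changed gene expression in the macrophages. The labels do not say whether the 3 libraries of a group came from separate cultures, so the p-values measure only the spread between these libraries, which may be technical.

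Hmox1 encodes heme oxygenase, which breaks down heme to biliverdin, iron and carbon monoxide, and Nqo1 encodes a quinone reductase. Both are classic targets of NRF2, a transcription factor that is released from its inhibitor KEAP1 under oxidative or electrophilic stress and binds antioxidant response elements. Hspb8, Dnajb1 and Hspa2 belong to the families of small heat shock proteins, HSP40 co-chaperones and HSP70 chaperones, which hold unfolded proteins, deliver them and refold them, and many of these genes are driven by the heat shock factor HSF1 through heat shock elements.

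As deposited, all 5 genes had higher normalized counts in the G scaffold group than in Control, with no overlap between the libraries of the groups. The same held for 82.9% of the 345 listed genes, so it sets the 5 genes apart from the table in no way. TMM factors over the listed genes, which take most genes as unchanged, gave log2 fold changes of -0.13 for Hmox1 and Dnajb1. These did not differ from 0 (SE 0.118 and 0.124, adjusted p = 0.395 and 0.409 in limma). A table of genes selected as changed does not meet the assumption of TMM. The TMM values therefore show only how far the size depends on the scaling. In the deposited scaling the 5 genes fell into 2 sets. A well expressed set (Hmox1, Dnajb1 and, at a lower level, Hspa2) rose by 2.56 to 2.86 times. A set near the limit of detection in Control (Nqo1 and Hspb8) rose from 4 and 2 reads to 44 and 34 reads. The normalized count is a gene's read count divided by 1 size factor per library, and since every deposited value was a whole multiple of 1 read, the read numbers are known as well. Size factors lay between 0.924 and 1.05. The libraries held 88836 to 100895 reads over the 345 listed genes in Control and 150056 to 156029 in the G scaffold group, which is a sum over the table and not the depth of sequencing. The table lists only genes that passed the authors' thresholds on these same libraries, so a test on it is not independent evidence of a difference.

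Promoter sequences of RefSeq (build GRCm38.p6, 250 bases before to 50 bases after a start) were found for Nqo1, Hspb8, Dnajb1 and Hspa2, and 3 of them are shown for the elements that the stress factors are known to read. The letters of 4 elements were searched on both strands. These were TGACNNNGC (antioxidant response), GAANNTTC or TTCNNGAA (a short form of the heat shock element), TGCACNC or TGCGCNC (metal response) and TGANTCA (AP-1). These letters occur in 12.4%, 15.1%, 25.7% and 7.81% of all 32817 such windows, so a match is common. The 250 bases before the Dnajb1 start (chr8:83607925-83608174, plus strand) hold 1 match to the antioxidant response element, read on the opposite strand and set in capitals, at 15 to 7 bases before the start. The 30 bases around the Hspb8 start (chr5:116422844-116422873, minus strand) hold 1 match to the short form of the heat shock element, in capitals. It lies at bases 2 to 9 counted from the start as 0. The 250 bases before the Nqo1 start (chr8:107403206-107403455, minus strand) hold none of the 4, and are shown because Nqo1 is the best known NRF2 target of the set with a window.
Dnajb1: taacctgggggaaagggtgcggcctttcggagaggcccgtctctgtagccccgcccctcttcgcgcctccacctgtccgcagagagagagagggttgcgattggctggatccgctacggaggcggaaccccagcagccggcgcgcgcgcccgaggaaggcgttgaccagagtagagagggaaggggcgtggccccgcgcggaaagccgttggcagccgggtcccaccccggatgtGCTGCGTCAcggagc
Hspb8: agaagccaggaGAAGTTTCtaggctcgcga
Nqo1: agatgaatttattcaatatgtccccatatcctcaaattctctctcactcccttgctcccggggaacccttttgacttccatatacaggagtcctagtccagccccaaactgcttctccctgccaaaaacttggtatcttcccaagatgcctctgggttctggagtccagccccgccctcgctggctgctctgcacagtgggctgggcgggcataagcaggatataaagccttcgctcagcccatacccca
The window of Hspa2 held none of the letters either, and a further Dnajb1 window, that of a later start, held 1 match to the metal response element. A match is a run of letters and not a bound site, and its absence covers these windows only.

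Hmox1 was the most abundant of the 5 genes in both groups. Its normalized counts were 1739, 1582 and 1698 in Control replicates 1, 2 and 3, and 4458, 4167 and 4230.3 in G scaffold replicates 1, 2 and 3. The groups were far apart compared with the libraries within a group, as the plot of the values by library shows. The mean rose from 1673 ± 81.4 to 4285 ± 153 (SD, n = 3 in each group), a ratio of 2.56. In limma on log2(normalized count + 1), with p-values adjusted over the 345 genes by Benjamini-Hochberg, the log2 fold change was 1.36 (SE 0.121, 95% interval 1.06 to 1.65, adjusted p = 9.92e-05). The table places Hmox1 (MGP_SPRETEiJ_G0032353) on chromosome 8, 73645396 to 73654300, plus strand, in the coordinates of the SPRET/EiJ mouse strain. The GENCODE annotation of GRCm38 gives it 2 transcripts of 2 to 5 exons and 0 overlapping genes.

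**Figure D1:**
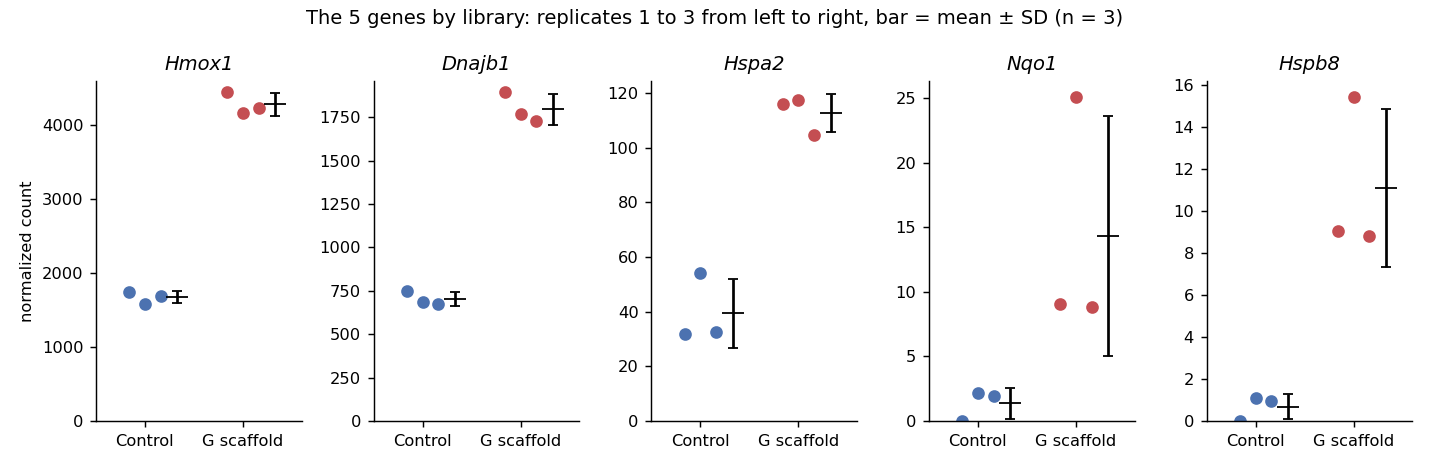
Normalized counts as deposited (y axis, linear from 0, 1 scale per gene) of the 5 genes in each library, with replicates 1 to 3 from left to right in Control (blue) and the G scaffold group (red); the cross and bar beside each group give the mean ± SD (n = 3). In each panel all 3 G scaffold points lie above all 3 Control points, and Nqo1 and Hspb8 have their highest point in G scaffold replicate 2. All G scaffold libraries lay above all Control libraries in 82.9% of the 345 listed genes.

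Nqo1, the other NRF2 target, was barely detected in Control. Its normalized counts were 0, 2.16 and 1.91 in Control replicates 1, 2 and 3, and 9.07, 25.1 and 8.81 in G scaffold replicates 1, 2 and 3. These stand for 0, 2 and 2 reads against 9, 26 and 9 reads, so G scaffold replicate 2 held more than the other two libraries of its group together. The group means were 1.36 ± 1.18 and 14.3 ± 9.32 (SD, n = 3 in each group). The gene passed the test (log2 fold change 2.71, SE 0.586, 95% interval 1.28 to 4.14, adjusted p = 0.00378 in limma). Summed over libraries and scaled by the size factors, 44 against 4 reads gave a ratio of 10.7 (exact 95% interval 3.91 to 41.1, counting error only). The ratio was 6.65 (2.19 to 27.0) without G scaffold replicate 2 and 7.11 (2.59 to 27.2) without Control replicate 1, which held 0 reads. The fitted log2 fold change moved from 4.05 to 1.04 as the added constant went from 0.1 to 10, while edgeR and DESeq2 on the reads gave 3.30 and 3.41. The direction was the same in all of these, and the size is known only within a wide range. With so few Control reads, Nqo1 could be listed only by being high in the G scaffold group. Its direction and its passed test are therefore a description and no evidence of a rise. Nqo1 (MGP_SPRETEiJ_G0032653) lies on chromosome 8, 107145915 to 107170116, minus strand, in the coordinates of the table, and has 1 transcript of 6 exons in GRCm38.

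Among the chaperones, Dnajb1, an HSP40 that brings substrates to HSP70 and stimulates its ATPase, followed Hmox1 closely. Its normalized counts were 748, 688 and 672 in Control replicates 1, 2 and 3, and 1897, 1766 and 1726 in G scaffold replicates 1, 2 and 3. Replicate 1 was the highest library in either group, and the lowest G scaffold library lay well above the highest Control library. The mean rose from 703 ± 40.3 to 1797 ± 89.5 (SD, n = 3 in each group), a ratio of 2.56, with a log2 fold change of 1.35 (SE 0.125, 95% interval 1.05 to 1.66, adjusted p = 0.000111 in limma). Dnajb1 (MGP_SPRETEiJ_G0032392) lies on chromosome 8, 82305520 to 82309264, plus strand, in the table. Of its 3154 windows of 50 transcript bases in GRCm38, 13 (0.412%) occur in other genes too, while Hmox1, Nqo1, Hspb8 and Hspa2 share 0 such windows.

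Hspa2, an HSP70 best known from male germ cells, was expressed at a lower level. Its normalized counts were 31.8, 54.1 and 32.5 in Control replicates 1, 2 and 3, and 116, 118 and 105 in G scaffold replicates 1, 2 and 3. Control replicate 2 stood above the other Control libraries, and the G scaffold libraries lay close together. The mean rose from 39.5 ± 12.7 to 113 ± 7.02 (SD, n = 3 in each group), a ratio of 2.86, with a log2 fold change of 1.53 (SE 0.233, 95% interval 0.97 to 2.10, adjusted p = 0.000805 in limma). By reads, 344 against 116 gave a ratio of 2.89 (exact 95% interval 2.34 to 3.6), and 3.51 without Control replicate 2. Hspa2 (MGP_SPRETEiJ_G0018712) lies on chromosome 12, 69830357 to 69833114, plus strand, in the table, with 1 to 2 exons in GRCm38.

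Hspb8, a small heat shock protein that works with the co-chaperone BAG3 in clearing misfolded proteins, was the least abundant of the 5. Its normalized counts were 0, 1.08 and 0.955 in Control replicates 1, 2 and 3, and 9.07, 15.4 and 8.81 in G scaffold replicates 1, 2 and 3. These are 0, 1 and 1 reads against 9, 16 and 9 reads, and G scaffold replicate 2 was again the highest library. The group means were 0.679 ± 0.592 and 11.1 ± 3.75 (SD, n = 3 in each group). The log2 fold change was 2.88 (SE 0.356, 95% interval 2.01 to 3.75, adjusted p = 0.000367 in limma). By reads, 34 against 2 gave a ratio of 16.6 (exact 95% interval 4.25 to 143), which was 11 (2.82 to 94.4) without Control replicate 1 and 13.3 (3.19 to 118) without G scaffold replicate 2. The fitted log2 fold change moved from 4.44 to 0.97, under the threshold of 1, as the added constant went from 0.1 to 10. On the reads, edgeR and DESeq2 gave 3.82 and 4.05. The limma interval holds only for an added 1, which compresses counts this low, so the size is known only within a wide range. Like Nqo1, Hspb8 could be listed only by being high in the G scaffold group. Its direction and its passed test are therefore no evidence of a rise. Hspb8 (MGP_SPRETEiJ_G0028636) lies on chromosome 5, 115322001 to 115339270, minus strand, in the table, with 3 exons in GRCm38.

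All 5 genes passed an adjusted p of at most 0.05 with a log2 fold change of at least 1. In the table as a whole 82.6% of the genes passed in this direction, and in 82.9% all G scaffold libraries lay above all Control libraries. Because the authors selected the listed genes on this contrast, nothing is read from the 5 of 5. The alternatives that also called all 5 called much the same share of the table, namely 83.2% with edgeR, 83.2% with DESeq2, 82.6% with an added constant of 0.1, 80.6% at an adjusted p of 0.01, 83.2% with no fold limit and 82.3% with a replicate block. Leaving out Control replicate 1, 2 or 3 gave 80.0%, 80.6% and 82.0%, and leaving out G scaffold replicate 1, 2 or 3 gave 81.2%, 82.0% and 81.4%, again with all 5 called. An added constant of 10 called 4 of the 5 genes and 56.2% of the table, and a log2 limit of 1.5 called 3 of the 5 (Nqo1, Hspb8 and Hspa2) and 59.7%. A filter at 10 in every library left Hmox1, Dnajb1 and Hspa2, all 3 called, with 71.4% of its genes, and a filter at a mean of 100 left Hmox1 and Dnajb1, both called, with 73.9%. In bulk RNA, fewer cells of a type and less RNA per cell cannot be told apart, and this holds for each change given here.

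Divided by the gene length in the table, the levels kept 1 order in both groups. In Control, the normalized count per kb of gene length was 783 ± 38.1 for Hmox1, 312 ± 17.9 for Dnajb1, 15.7 ± 5.04 for Hspa2, 0.874 ± 0.761 for Nqo1 and 0.341 ± 0.297 for Hspb8 (SD, n = 3). In the G scaffold group it was 2005 ± 71.6 for Hmox1, 798 ± 39.8 for Dnajb1, 44.8 ± 2.79 for Hspa2, 9.22 ± 6.0 for Nqo1 and 5.58 ± 1.88 for Hspb8. In this order the libraries of neighbouring genes did not overlap, except those of Nqo1 and Hspb8, which overlapped in both groups. Ordered by mean normalized count in Control and then in the G scaffold group, Hmox1 ranked 7 both times among the 345 listed genes, Dnajb1 ranked 19 and 13, and Hspa2 ranked 113 and 97. Nqo1 ranked 255 and 264, and Hspb8 ranked 271 and 279, so neither became abundant relative to the other listed genes. The plot of levels of all listed genes shows these places.

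**Figure D2:**
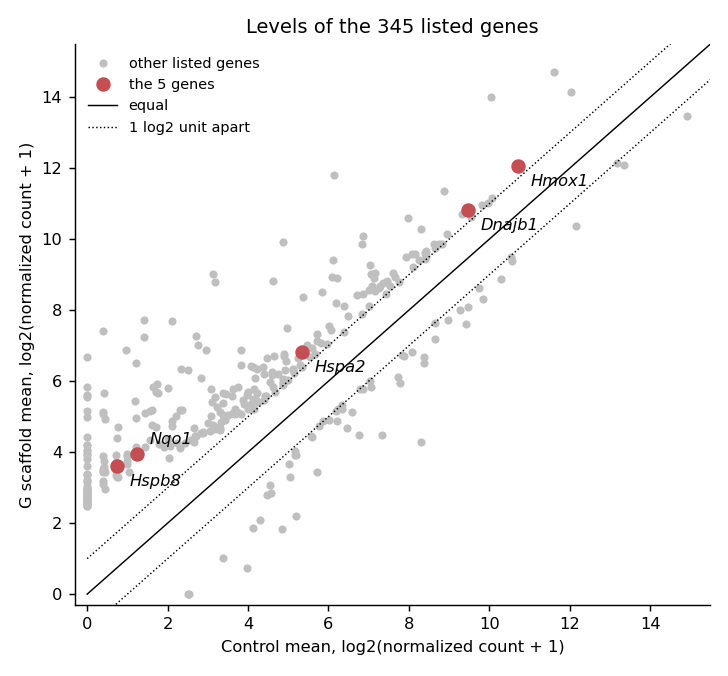
Log2(mean normalized count + 1) as deposited, in Control (x axis) and in the G scaffold group (y axis) for the 345 listed genes, with the 5 genes in red; the solid line marks equal levels and the dotted lines 1 log2 unit up or down. Hmox1, Dnajb1 and Hspa2 lie just above the upper dotted line, and Nqo1 and Hspb8 lie farther above it at the low end of the Control axis.

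The rises of the well expressed genes were modest within this selected table. Of the 287 listed genes with a higher value in the G scaffold group, 188 had over 3 reads in at least 1 Control library, and their median log2 fold change was 1.62. Among these 188, ordered from the largest log2 fold change down, Hspa2 ranked 102, Hmox1 133 and Dnajb1 134. Nqo1 and Hspb8 belong to the other 99 genes, which had at most 3 reads in every Control library. The median over the table was a log2 fold change of 1.87. Against it Hmox1 and Dnajb1 each lay 0.51 lower, Hspa2 lay 0.33 lower, Nqo1 lay 0.84 higher and Hspb8 lay 1.01 higher. With so few reads in Control, Nqo1 and Hspb8 could be listed only by being high in the G scaffold group. Their place above the median is therefore a description and no evidence about these genes.

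The spread between libraries differed from gene to gene. For Hmox1 the coefficient of variation was 4.86% in Control, and it was 3.57% under the extract, against 2.45% and 1.52% from counting error alone. For Dnajb1 it was 5.73% and 4.98%, against 3.79% and 2.34%. Both genes thus varied little, but by more than their reads alone would give. Hspa2 varied by 32.1% in Control, where counting gives 16.1%, and by 6.23% in the G scaffold group, where counting gives 9.34%. Nqo1 varied by 65.1% in the G scaffold group against 26.1% from counting, and Hspb8 by 33.8% against 29.7%. The chi-square over its degrees of freedom, which is near 1 where libraries differ by counting error only, was 6.18 for Nqo1 and 1.30 for Hspb8 in the G scaffold group. The G scaffold libraries of Nqo1 therefore differed by more than counting error, and those of Hspb8 by little more than that.

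The plain ratio of 1 gene to another within a library does not depend on how the libraries are scaled. The differences of log2 ratios given here carry the added 1, so those with Nqo1 or Hspb8, at few reads, do move with the scaling. The ratio of Hmox1 to Dnajb1 per kb was 2.45, 2.42 and 2.66 in Control replicates 1, 2 and 3, and 2.47, 2.48 and 2.58 in G scaffold replicates 1, 2 and 3. The groups overlapped, and the difference of the mean log2 ratio, G scaffold minus Control, was 0.0036 (SE 0.0474), with p = 1 in a two-sided exact permutation test. Hmox1 thus rose by nearly the same factor as Dnajb1, within an error of about 0.05 log2 units. The ratio of Hmox1 to Hspa2 changed by -0.18 (SE 0.290), that of Dnajb1 to Hspa2 by -0.18 (SE 0.268) and that of Nqo1 to Hspb8 by -0.17 (SE 0.297), all with overlapping libraries. With all libraries the error of these 3 pairs was larger than the difference itself. Both pairs with Hspa2 turn on single Control libraries. Without Control replicate 2, where Hspa2 was highest, the difference was -0.46 (SE 0.0638) for Hmox1 over Hspa2 and -0.44 (SE 0.102) for Dnajb1 over Hspa2. Without Control replicate 1 they were -0.0182 and -0.0043, and without Control replicate 3 they were -0.05 and -0.097. Nqo1 over Hspb8 lay between -0.39 (without G scaffold replicate 2) and -0.06 (without G scaffold replicate 1 or 3), with -0.37 without Control replicate 1.

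Of the 10 pairs, 5 had no overlap between the groups, and all 5 set Nqo1 or Hspb8 against a well expressed gene. With 4 and 2 reads in Control, Nqo1 and Hspb8 could be listed in a table selected on this contrast only by being high in the G scaffold group, so these differences are a description and no evidence that the genes moved by unlike amounts. On the log2(normalized count + 1) scale the difference, G scaffold minus Control, was 1.53 (SE 0.461) for Hspb8 over Dnajb1, 1.35 (SE 0.348) for Hspb8 over Hspa2 and 1.36 (SE 0.751) for Nqo1 over Dnajb1. It was -1.52 (SE 0.454) for Hmox1 over Hspb8 and -1.35 (SE 0.745) for Hmox1 over Nqo1. Each has an exact permutation p of 0.1, the smallest that 3 against 3 libraries allow, and 0.2 after adjustment over the 10 pairs, so none passed 0.05. The difference for Nqo1 over Hspa2 was 1.18 (SE 0.617) with overlapping libraries. With an added constant of 10 the difference turned its sign in each of these 6 pairs, for example to 0.38 for Hmox1 over Hspb8 and to -0.30 for Nqo1 over Dnajb1, since such a constant exceeds the counts of Nqo1 and Hspb8 in every library but G scaffold replicate 2. Without Control replicate 1 the difference was -0.79 for Hmox1 over Nqo1, 0.78 for Nqo1 over Dnajb1 and 0.77 for Nqo1 over Hspa2, and without G scaffold replicate 2 it was -0.87, 0.88 and 0.74. The plot of ratios between the genes shows the 10 differences.

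**Figure D3:**
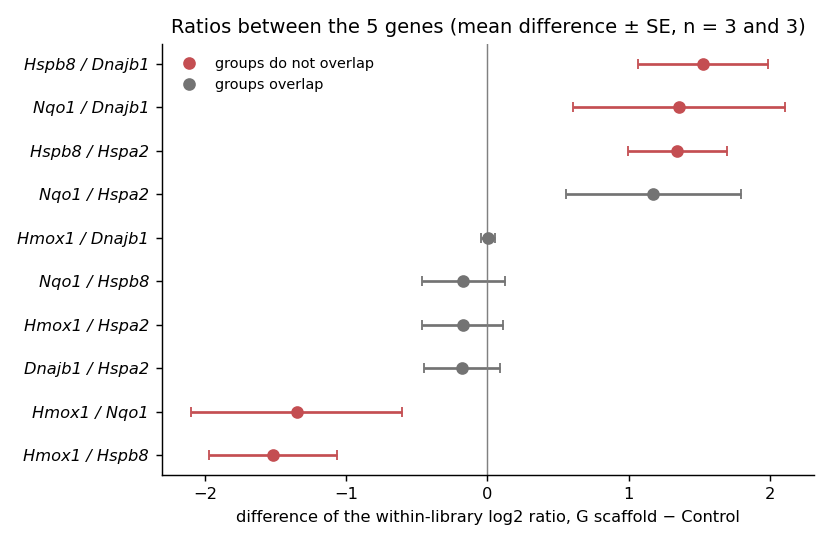
Difference of the mean within-library log2 ratio, G scaffold minus Control (x axis, log2 units; point = difference, bar = SE, n = 3 and 3), for the 10 pairs of the 5 genes; red marks pairs whose libraries do not overlap between the groups. Hmox1 over Dnajb1 sits at 0.0036 with the shortest bar, and the 5 red pairs all contain Nqo1 or Hspb8.

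For the well expressed genes the size of the change rests on the scaling of the libraries, and with TMM factors it was near 0. The authors' size factors were kept as deposited, and over the listed genes the G scaffold libraries then hold more reads. Dividing by the column totals moved the median over the table from 1.87 to 1.27 (log2), and TMM factors, which take most genes as unchanged, moved it to 0.48. The log2 fold change of Hmox1 was then 0.71 with column totals and -0.13 with TMM, that of Dnajb1 0.71 and -0.13, and that of Hspa2 0.90 and 0.07. That of Nqo1 was 2.29 and 1.76, and that of Hspb8 was 2.50 and 2.03. With column totals 2 of the 5 genes (Nqo1 and Hspb8) and 55.4% of the table were called, and with TMM 1 of the 5 (Hspb8) and 38.8%. Relative to the median of the listed genes, the places of the 5 genes changed less. Hmox1 lay at -0.51, -0.56 and -0.61 and Hspb8 at 1.01, 1.23 and 1.55 under the deposited, column-total and TMM scalings. Nqo1 and Hspb8, with few Control reads, could be listed only by being high in the G scaffold group, so their place above the median is a description. A table of genes selected as changed does not meet the assumption of TMM. These values therefore say how far the size depends on the scaling, and do not choose between scalings. Under TMM the values of Hmox1 and Dnajb1 did not differ from 0 (adjusted p = 0.395 and 0.409 in limma), so their sign gives no direction.

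**Figure D4:**
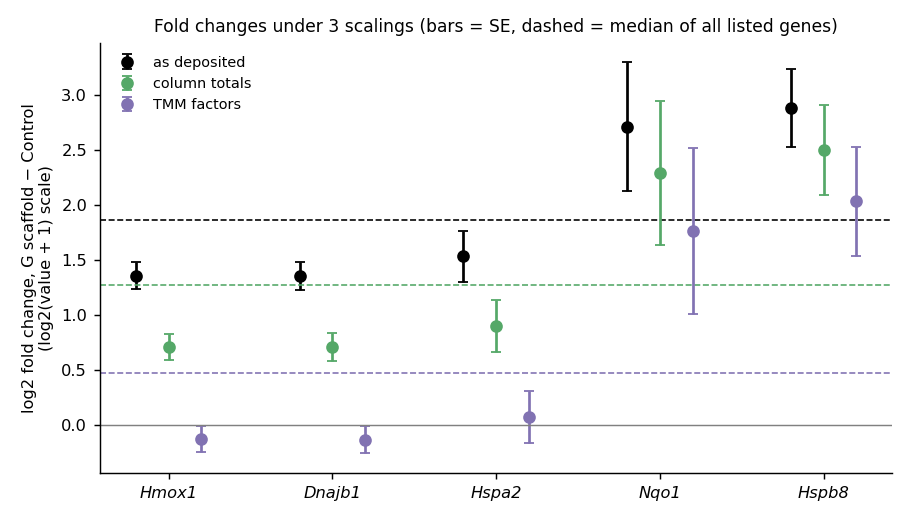
Log2 fold change, G scaffold minus Control, on the log2(value + 1) scale (y axis; bars = SE) of the 5 genes under the deposited scaling (black), column totals (green) and TMM factors over the listed genes (violet); dashed lines mark the median of the 345 genes under each. Hmox1, Dnajb1 and Hspa2 lie below the median of their own scaling and reach 0 with TMM, while Nqo1 and Hspb8 lie above it in each. With few Control reads, Nqo1 and Hspb8 could be listed only by being high in the G scaffold group.

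Few other genes of the fixed stress lists are in the table. The lists do not cover every gene of these pathways, so further such genes may be in the table. Of 159 genes on 3 lists (NRF2 targets and regulators, antioxidant enzymes and sestrins, heat shock proteins and chaperones), 9 are listed, of which 5 are the genes above. As deposited, all 9 passed the test as higher in the G scaffold group and 0 as lower, beside 82.6% of all listed genes. With TMM factors, whose assumption genes selected as changed do not meet, the log2 fold changes of Akr1b8 and Sesn2 fell below 0. Those of Hmox1 and Dnajb1 did not differ from 0 (adjusted p = 0.395 and 0.409 in limma). Of the 49 genes on the NRF2 list, 4 are listed, with a median log2 fold change of 1.55, against 1.87 for all listed genes. Of the 78 heat shock and chaperone genes, 4 are listed, with a median of 1.66. Of the 32 antioxidant genes, Sesn2 is listed. The levels of the remaining genes on these lists are not analysed here.

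The other 4 genes of these lists that are in the table were measured in every library. Maff, a small MAF protein that pairs with NRF2 on DNA, had 72.5, 104 and 72.6 normalized counts in Control and 314, 238 and 283 in the G scaffold group (log2 fold change 1.74, SE 0.202, adjusted p = 0.000273). Akr1b8, an aldo-keto reductase, had 365, 356 and 291 in Control and 713, 639.6 and 731 in the G scaffold group (1.04, SE 0.149, adjusted p = 0.000619), and its log2 fold change was 0.94 without Control replicate 3. Neither gene overlapped between the groups, and Maff rose by more than Hmox1 on this scale while Akr1b8 rose by less, a difference that was not tested. Sesn2, a stress-induced sestrin, had 427, 387 and 385 in Control and 859.9, 849 and 862 in the G scaffold group (1.10, SE 0.121, adjusted p = 0.000219). Dnajb9, an HSP40 of the endoplasmic reticulum, had 150.0, 146 and 119 in Control and 446, 459 and 537 in the G scaffold group (1.79, SE 0.157, adjusted p = 9.26e-05). With TMM factors the log2 fold change of Akr1b8 was -0.44 and that of Sesn2 -0.38, while that of Maff fell from 1.74 to 0.27 and that of Dnajb9 from 1.79 to 0.31, so that none of the 4 was called higher. Since genes selected as changed do not meet the assumption of TMM, the negative signs of Akr1b8 and Sesn2 give no direction.

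The listed genes of the metal response, whose products bind or export zinc, rose as well in the deposited scaling. Of 17 genes on that list 3 are in the table, with log2 fold changes of 3.97 for Mt2, 3.10 for Mt1 and 1.10 for the zinc exporter Slc30a1. Under TMM factors the log2 fold changes of Mt2 and Mt1 were lower but still called, at 2.49 and 1.62, while Slc30a1 was at -0.38. Genes selected as changed do not meet the assumption of TMM, so the negative sign of Slc30a1 gives no direction.

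The genes whose profile over the 6 libraries was nearest to each of the 5 were found by the root mean square difference of log2(normalized count + 1), each gene centred on its own mean. Nearest to Hmox1 were Dnajb1 (0.0474), Sccpdh (0.0488) and Dmpk (0.0771), and nearest to Dnajb1 were Hmox1 (0.0474), Afp (0.0600) and Sccpdh (0.0670). Hmox1 and Dnajb1 were thus each other's nearest among the named genes of the table, but Sccpdh lay almost as near to Hmox1. The distance rests largely on how alike the fold changes are, so a small value marks no special link between genes. Nearest to Hspa2 were Rtp4 (0.157), Etv4 (0.166) and Plaur (0.181). Nearest to Nqo1 were Hspb8 (0.309), Gpa33 (0.468) and Cnga3 (0.477), and nearest to Hspb8 were Gpa33 (0.260), Vgf (0.297) and Nqo1 (0.309). These distances describe 6 libraries that share their size factors, and at few reads they also hold counting error.

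The labelled cell type could be checked on few genes, since 1 of 12 macrophage markers is in the table. This is Mpeg1, the pore-forming perforin-2 of macrophages, whose mean was 9263 normalized counts in Control, and 4530.0 under the extract. Of 7 fibroblast and osteoblast markers, Col1a1 is listed, with 0, 0 and 0 reads in Control and 8, 9 and 5 reads in the G scaffold group. The listed markers of T cells, B cells, epithelial cells, neutrophils and endothelial cells number 0. The reads of Col1a1 moved with the group as those of Nqo1 and Hspb8 did, and their part in these results was not tested.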

How the data were processed

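RNA-seq of RAW264.7 macrophages covered 3 Control and 3 G scaffold libraries, grouped by the sample labels. The authors deposited 1 table of 345 genes with a normalized signal per library, which is the gene read count divided by 1 size factor per library. The deposited table also holds the authors' own log2 fold change, p-value and adjusted p-value, which were not used. The labels name GRCm38 and mm10, whereas 329 of the 345 identifiers belong to the SPRET/EiJ annotation, and the aligner and counter are not given in the sources used here. Genes outside the table are not analysed here.

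Reads were recovered by dividing each value by the value of 1 read, and 100% were whole within 0.001 reads. Libraries of a group differed by more than sampling noise, so none was counted as a duplicate. The main test was limma 3.58.1 (R 4.3.3) on log2(value + 1) over all 345 genes, with group as the only term, Benjamini-Hochberg adjustment, and limits of 0.05 on the adjusted p and of 1 on the log2 fold change in either direction. On the recovered reads, with the authors' size factors, the quasi-likelihood test of edgeR 4.0.16 and the Wald test of DESeq2 1.42.0 served as alternatives. Ratios of reads carry exact binomial 95% intervals, which cover counting error only. Other alternatives were TMM factors, column totals, added constants of 0.1 and 10, filters, thresholds, a replicate block and leaving out each library. The limma, edgeR and DESeq2 fits were tested on simulated data, with the size factors given and genes changed in both directions. TMM factors, column totals and the other steps were not tested in this way. Named genes are the 5 genes, the listed genes of fixed pathway and marker lists, and the 3 nearest named profiles of each. The genes and lists were chosen with earlier results of these data known. Promoter windows came from RefSeq and exon counts from GENCODE.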

Additional observations from a re-analysis of the deposited data

How the results depend on the processing

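All 5 genes passed the test with edgeR, DESeq2, an added constant of 0.1, the other limits of p (0.01) and fold (0), and without each library in turn (5 to 5). These settings called 80.0% to 83.2% of the listed genes higher. The authors selected the listed genes on this contrast, so nothing is read from the 5 of 5. The number that passed was 1 with TMM factors (Hspb8), 2 with column totals (Nqo1 and Hspb8), 4 with an added constant of 10, 3 with a filter at 10 in every library, 2 with a filter at a mean of 100 and 3 at a log2 limit of 1.5 (Nqo1, Hspb8 and Hspa2). In the same order, the share of the tested genes called higher was 38.8%, 55.4%, 56.2%, 71.4%, 73.9% and 59.7%. The filters removed Nqo1 and Hspb8, and the stricter one Hspa2 too. Of all genes, 285 were higher and 55 lower. TMM gave 134 higher, the filter at 10 gave 115, and the filter at 100 gave 68 higher and 23 lower; a limit of 1.5 gave 24 lower. Genes selected as changed do not meet the assumption of TMM, so a negative sign under it gives no direction. With TMM the log2 fold changes of Hmox1, Dnajb1, Akr1b8, Sesn2 and Slc30a1 were -0.13, -0.13, -0.44, -0.38 and -0.38. Those of Hmox1 and Dnajb1 did not differ from 0 (adjusted p = 0.395 and 0.409 in limma). With an added constant of 10 the pair differences turned to 0.31 (Hmox1 over Nqo1), 0.38 (Hmox1 over Hspb8), 0.0126 (Hmox1 over Hspa2), 0.0696 (Nqo1 over Hspb8), -0.30 (Nqo1 over Dnajb1), -0.30 (Nqo1 over Hspa2), -0.37 (Hspb8 over Dnajb1), -0.37 (Hspb8 over Hspa2) and 0.0026 (Dnajb1 over Hspa2). Hmox1 over Dnajb1 lay between -0.0219 and 0.0465 without each library in turn. The constant compresses low counts by construction, and TMM and column totals rescale the groups. The cause of no other shift was tested.

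Replicate numbers are shared by the groups, but same-numbered libraries did not deviate together (correlations of 0.0047, -0.035 and -0.071). No library correlated best with its own number. With the replicate number as a block all 5 genes still passed, beside 82.3% of the listed genes. Depth limits Nqo1 and Hspb8 most, with 4 and 2 reads in Control.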
